A study of Mus musculus with 8 samples.

Results

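9 genes of the Notch receptor pathway were followed through 4 groups of mouse bone marrow cells: the receptors Notch1 and Notch2, the DNA-binding factor Rbpj, the receptor glycosyltransferase Mfng, the cleavage genes Adam10 and Ncstn, the Deltex ligases Dtx3 and Dtx4, and the target gene Hes1. They were taken by gene name from the deposited table, in which all 9 were found among 13388 genes. The groups were Ly6C+ classical monocytes on OP9, Ly6C+ classical monocytes on OP9-DLL1, cMoPs on OP9 and cMoPs on OP9-DLL1, with 2 libraries each. All cells were sorted from bone marrow of wild-type mice, and each group had been kept on its stroma for 6 h. cMoPs (common monocyte progenitors) are the committed, dividing precursors of monocytes. OP9 is a mouse bone marrow stromal cell line, and OP9-DLL1 is a derivative of it that carries the Notch ligand DLL1 on its surface, so the 2 stromas are separate cell lines and plain OP9 is the control. The sources used here do not give the mouse strain, the age, any pooling of animals or how stromal cells were removed before RNA isolation. No label says that the numbered replicates are separate animals or cultures, and p-values therefore reflect the spread between these libraries alone, which may be technical.

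In Notch signalling, a ligand on 1 cell binds a Notch receptor on its neighbour. The metalloprotease ADAM10 then cuts the receptor outside the membrane, and gamma-secretase, a complex that contains nicastrin (the product of Ncstn), cuts it within the membrane. The freed intracellular part enters the nucleus, where it binds RBPJ and turns a repressing complex into an activating one at targets such as Hes1, which encodes a transcriptional repressor. Fringe enzymes such as MFNG add a sugar to O-fucose on the receptor's extracellular repeats and so change how it responds to different ligands, and Deltex proteins are ubiquitin ligases, some of which act on receptor trafficking. In the monocyte lineage, Notch2 is known for its part in forming nonclassical, Ly6C-low monocytes, which the title of the series names.

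Recovered depth over the deposited genes ranged from 47316323 to 62459962 reads a library. The authors' normalized library sizes ranged from 43312371 to 66166902. By these sizes 1 read corresponded to 0.0151 to 0.0231 CPM (counts per fixed library size, after the authors' normalization). The 2 libraries of monocytes on OP9 stood furthest apart, at a chi-square per gene of 170.1, against 24.0 to 48.4 within the other pairs. Levels of the 6 monocyte markers summed to 3472 to 4309 CPM in monocytes and 2589 to 3058 CPM in cMoPs. Of them Csf1r, Ccr2, Itgam and Fn1 were higher in every monocyte library, whereas Ly6c2 (872 to 1204 CPM in monocytes, 2065 to 2314 CPM in cMoPs) and Cx3cr1 (2.03 to 2.49 and 8.76 to 15.4 CPM) were higher in cMoPs. The table held 7 of 8 progenitor markers, each higher in every cMoP library, with sums of 162 to 295 CPM in monocytes and 14676 to 21960 CPM in cMoPs. Markers of other cells were present. The 7 of 17 stromal markers in the table summed in replicates 1 and 2 to 28.1 and 28.8 CPM (monocytes, OP9), 4.80 and 20.8 CPM (monocytes, OP9-DLL1), 0.620 and 1.81 CPM (cMoPs, OP9) and 2.85 and 1.03 CPM (cMoPs, OP9-DLL1). Neutrophil markers (6 of 6) summed to 1489 and 1881 CPM (monocytes, OP9), 1054 and 896 CPM (monocytes, OP9-DLL1) and 103 to 190 CPM over the cMoP libraries. Macrophage markers (5 of 5) summed to 89.8 to 173 CPM in monocytes and 13.1 to 20.6 CPM in cMoPs. Mast cell and basophil markers (2 of 4) summed to 0.349 to 35.6 CPM in monocytes and 12.0 to 30.4 CPM in cMoPs. Dendritic cell markers (2 of 5) went the other way, with sums of 85.9 to 96.9 CPM in monocytes and 125 to 138 CPM in cMoPs. Markers of B cells, T and NK cells, megakaryocytes and erythroid cells are not analysed here.

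Hes1, the target gene, was higher on DLL1 stroma in both cell types, while receptor RNA overlapped between the stromas. With limma-trend and Benjamini-Hochberg adjustment over all genes tested, 3 of the 9 genes passed in monocytes: Hes1 and Mfng rose and Rbpj fell. Of all genes tested, 6.39% passed in that comparison, 3.36% higher and 3.03% lower on OP9-DLL1. Of the genes that passed, 52.6% were higher, a share that was 39.9% when each library was centred on its median. In cMoPs 1 of the 9 passed, again Hes1, against 0.77% of all genes (0.464% higher, 0.307% lower). The median log2 fold change over the 9 genes was 0.13 in monocytes and -0.11 in cMoPs, against 0.01 over all genes tested in each.

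**Figure D1:**
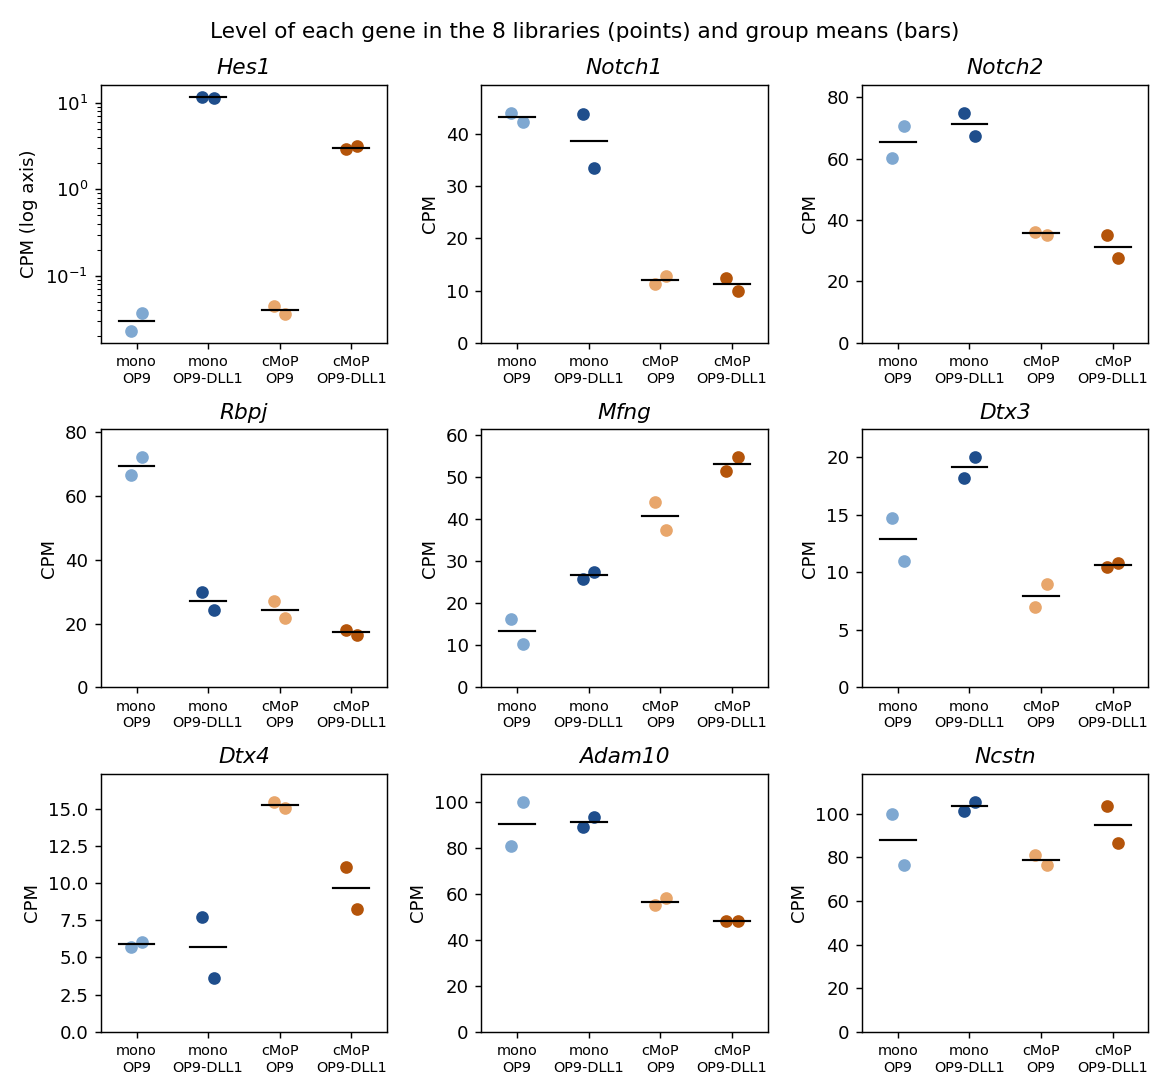
Level of each of the 9 genes in CPM in every library (points) with the group mean (bar), by cell type (mono, monocyte; cMoP) and stroma; the Hes1 axis is logarithmic and the others start at 0. Hes1 is near 0 on OP9 in both cell types and at 2.92 to 11.7 CPM on OP9-DLL1, while the monocyte libraries of Notch1, Notch2 and Adam10 all lie above the cMoP libraries.

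Hes1 (chromosome 16, 30064384 to 30067796, plus strand, GRCm38) was close to silent on plain OP9. Monocytes on OP9 held 1 and 2 reads of it (0.0231 and 0.0372 CPM), and monocytes on OP9-DLL1 held 570 and 581 reads (11.7 and 11.3 CPM). cMoPs on OP9 held 3 and 2 reads (0.0453 and 0.0365 CPM), and cMoPs on OP9-DLL1 held 166 and 185 reads (2.92 and 3.12 CPM). All 4 libraries on OP9-DLL1 lay far above the 4 on OP9, the monocyte pair was above the cMoP pair, and the 2 OP9 groups overlapped. The ratio of summed reads, scaled by library size, was 372 in monocytes (95% counting interval 127 to 1804) and 73.1 in cMoPs (31.0 to 226), intervals that cover counting error only. On the deposited log2 scale, where 0.5 reads were added to each count, the rise was 8.16 ± 0.58 (SE; limma adjusted p = 0.00024) in monocytes and 5.94 ± 0.58 (adjusted p = 0.0015) in cMoPs. On a log2(CPM + 1) scale the same rises were 3.60 and 1.95, since the added amount sets the size of a fold change from so few reads. The authors' deposited table gives adjusted p-values of 0.0049 and 0.0017 for them.

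Stromal markers also differed between the stromas. Their sum was 28.1 and 28.8 CPM in monocytes on OP9, beside 1 and 2 Hes1 reads, and 4.80 and 20.8 CPM in replicates 1 and 2 on OP9-DLL1, beside 11.7 and 11.3 CPM of Hes1. Of the 7 markers, 6 (Col1a1, Col1a2, Cxcl12, Fbln2, Sparc and Bgn) were lower in both OP9-DLL1 monocyte libraries than in both OP9 ones, with Fbln2 at 0 reads in replicate 1. Pdgfrb went the other way, in the direction of Hes1, from 0.0231 and 0.205 CPM to 2.89 and 4.23 CPM. The cMoP sums were 0.620 and 1.81 CPM (OP9) and 2.85 and 1.03 CPM (OP9-DLL1). In cMoP OP9-DLL1 replicate 2, Col1a2, Cxcl12 and Fbln2 were at 0 reads and Pdgfrb was at 0.810 CPM, against 0.256 to 0.333 CPM in the other cMoP libraries. The part of stromal RNA in the Hes1 level was not tested. In bulk libraries such as these, fewer cells of a type and less RNA per cell cannot be told apart.

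The receptors did not pass on DLL1 stroma. Notch1 (chromosome 2, 26457903 to 26516663, minus strand) measured 44.1 and 42.3 CPM in the OP9 monocyte pair and 43.9 and 33.6 CPM in the OP9-DLL1 monocyte pair. Its cMoP values were 11.4 and 12.8 CPM with plain OP9 against 12.4 and 9.99 CPM with OP9-DLL1. Within each cell type the stromas overlapped, and replicate 2 on OP9-DLL1 was the lowest library of both. The log2 fold change was -0.17 (95% confidence interval -0.58 to 0.24; limma adjusted p = 0.65) in monocytes and -0.11 (-0.52 to 0.30; adjusted p = 0.93) in cMoPs.

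Notch2 (chromosome 3, 98013527 to 98150361, plus strand) measured 60.2 and 70.5 CPM in the OP9 monocyte pair and 75.0 and 67.3 CPM in the OP9-DLL1 monocyte pair. The cMoP pairs gave 36.3 and 35.0 CPM (OP9) and 35.2 and 27.5 CPM (OP9-DLL1). The stromas overlapped in both cell types here too. The log2 fold change was 0.13 (95% confidence interval -0.23 to 0.48; limma adjusted p = 0.70) in monocytes and -0.20 (-0.55 to 0.16; adjusted p = 0.79) in cMoPs, and the bound furthest from 0 among the 4 receptor intervals was -0.58. The kit does not mark strand, and 1068 of the exon bases of Notch1 (7.50%) are shared with the antisense gene 0610009E02Rik, which was counted at 0.182 to 1.59 CPM. Notch2 shares 541 exon bases with Gm42820, counted at 0.365 to 2.75 CPM, and the sources used here do not say how such reads were assigned.

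Rbpj (chromosome 5, 53466152 to 53657362, plus strand), the DNA-binding core of the pathway, fell in monocytes on OP9-DLL1. It measured 66.7 and 72.2 CPM in the OP9 monocyte pair and 30.1 and 24.4 CPM in the OP9-DLL1 monocyte pair. For cMoPs the values were 27.0 and 21.8 CPM with plain OP9 against 18.1 and 16.4 CPM with OP9-DLL1. Monocytes on OP9 stood above the other 3 groups, monocytes on OP9-DLL1 overlapped cMoPs on OP9, and cMoPs on OP9-DLL1 were lowest without overlap. The monocyte log2 fold change was -1.36 ± 0.17 (SE), which is 2.56-fold lower (limma adjusted p = 0.0027), and the adjusted p was 0.0366 or lower without any 1 library. In cMoPs the log2 fold change was -0.49 ± 0.17 (95% confidence interval -0.87 to -0.12), which did not pass (limma adjusted p = 0.34). The 2 cMoP groups did not overlap. With 2 libraries each this is a description, and how often it happens was not counted over all genes. Of the 6 neutrophil markers, Mmp8 (OP9 pair 1130 and 1520 CPM, OP9-DLL1 pair 927 and 534 CPM) and Retnlg (45.2 and 46.2 CPM, 17.9 and 32.5 CPM) were also lower in both OP9-DLL1 monocyte libraries, and the other 4 (Ngp, Camp, Ltf and Cxcr2) overlapped between the stromas. Their part in the lower Rbpj level, and that of the stromal markers given above, was not tested. The mouse genome annotation holds processed copies of Rbpj, and the sources used here do not say how reads shared with them were counted.

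The promoter stretch of Rbpj is shown because, of the members whose promoters were searched, it was the one with a match to the shorter letters given below. It was chosen after the search, and a link between these letters and the level of Rbpj was not tested. RefSeq promoter windows on GRCm38.p6 were matched for 5 of the 9 genes (Ncstn, Notch1, Notch2, Rbpj with 2 start sites, and Adam10), and the 250 bases before each start were searched on both strands. The 7 letters GTGGGAA, a common form of the RBPJ site, were in 0 of these 5 genes and in 6.18% of the 27025 genes with a window (5.42% of 32851 windows). The shorter core TGGGAA, which lies within GTGGGAA and was searched after the longer form gave no match, was in 1 of the 5 genes, Rbpj, and in 24.1% of genes with a window (21.6% of windows). Both Rbpj windows lie inside the annotated gene, which begins at 53466152. In the window of the more upstream of these 2 RefSeq starts the core begins 149 bases before the start on the plus strand. A copy on the minus strand lies 65 bases before that start, within annotated exon. The stretch at chr5:53590096-53590213, plus strand, reads 5′ to 3′ as follows, with the core in capitals; the remaining 132 bases up to the start are annotated exon and are not printed.
Rbpj: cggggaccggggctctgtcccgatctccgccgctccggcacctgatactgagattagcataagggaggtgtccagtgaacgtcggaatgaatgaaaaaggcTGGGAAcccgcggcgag
A match of letters is a description of the sequence and not a binding site.

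Mfng (chromosome 15, 78755882 to 78773475, minus strand) ran opposite to Rbpj. It measured 16.2 and 10.4 CPM in the OP9 monocyte pair and 25.8 and 27.4 CPM in the OP9-DLL1 monocyte pair. Among cMoPs it stood at 43.9 and 37.4 CPM (OP9) and 51.4 and 54.7 CPM (OP9-DLL1). None of the 4 groups overlapped, in the order monocytes on OP9, monocytes on OP9-DLL1, cMoPs on OP9 and cMoPs on OP9-DLL1 from low to high. In monocytes the log2 fold change was 1.04 ± 0.20 (SE), or 2.05-fold higher (limma adjusted p = 0.020). That call did not hold without monocyte OP9-DLL1 replicate 1 (adjusted p = 0.0896) or replicate 2 (0.143), nor without the mean-variance trend (0.0891) or with only the 4 monocyte libraries (0.0889). In cMoPs the log2 fold change was 0.39 ± 0.20 (adjusted p = 0.63).

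Neither cleavage gene passed on DLL1 stroma. Adam10 (chromosome 9, 70678997 to 70780229, plus strand) measured 80.8 and 100.3 CPM in the OP9 monocyte pair and 89.2 and 93.4 CPM in the OP9-DLL1 monocyte pair, values that overlap. Its cMoP values were 55.2 and 58.2 CPM with plain OP9 against 48.4 and 48.3 CPM with OP9-DLL1, a small gap without overlap. The log2 fold change was 0.02 (95% confidence interval -0.28 to 0.32; limma adjusted p = 0.95) in monocytes and -0.23 (-0.53 to 0.07; adjusted p = 0.67) in cMoPs. Ncstn (chromosome 1, 172066013 to 172082795, minus strand) measured 99.8 and 76.3 CPM in the OP9 monocyte pair and 101.5 and 105.6 CPM in the OP9-DLL1 monocyte pair. The cMoP pairs gave 80.9 and 76.6 CPM (OP9) and 103.4 and 86.4 CPM (OP9-DLL1). Both OP9-DLL1 pairs lay above their OP9 pairs by a little, with log2 fold changes of 0.25 ± 0.15 (adjusted p = 0.40) and 0.26 ± 0.15 (adjusted p = 0.67). Ncstn shares 195 exon bases (4.91%) with the antisense gene Copa, counted at 79.9 to 104.2 CPM.

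The Deltex genes differed from each other. Dtx3 (chromosome 10, 127190378 to 127195728, minus strand) measured 14.7 and 11.0 CPM in the OP9 monocyte pair and 18.2 and 20.0 CPM in the OP9-DLL1 monocyte pair. For cMoPs the values were 6.98 and 8.96 CPM with plain OP9 against 10.4 and 10.9 CPM with OP9-DLL1. Each OP9-DLL1 pair lay above its OP9 pair, with log2 fold changes of 0.58 ± 0.21 (limma adjusted p = 0.13) and 0.43 ± 0.21 (adjusted p = 0.58), neither of which passed. Dtx4 (chromosome 19, 12466338 to 12501454, minus strand) measured 5.70 and 6.06 CPM in the OP9 monocyte pair and 7.74 and 3.61 CPM in the OP9-DLL1 monocyte pair. Among cMoPs it stood at 15.5 and 15.1 CPM (OP9) and 11.1 and 8.23 CPM (OP9-DLL1). The OP9-DLL1 monocyte libraries lay on either side of the OP9 pair, and those of cMoPs lay below theirs. The log2 fold changes were -0.15 ± 0.33 (adjusted p = 0.83) and -0.68 ± 0.33 (adjusted p = 0.58).

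**Figure D2:**
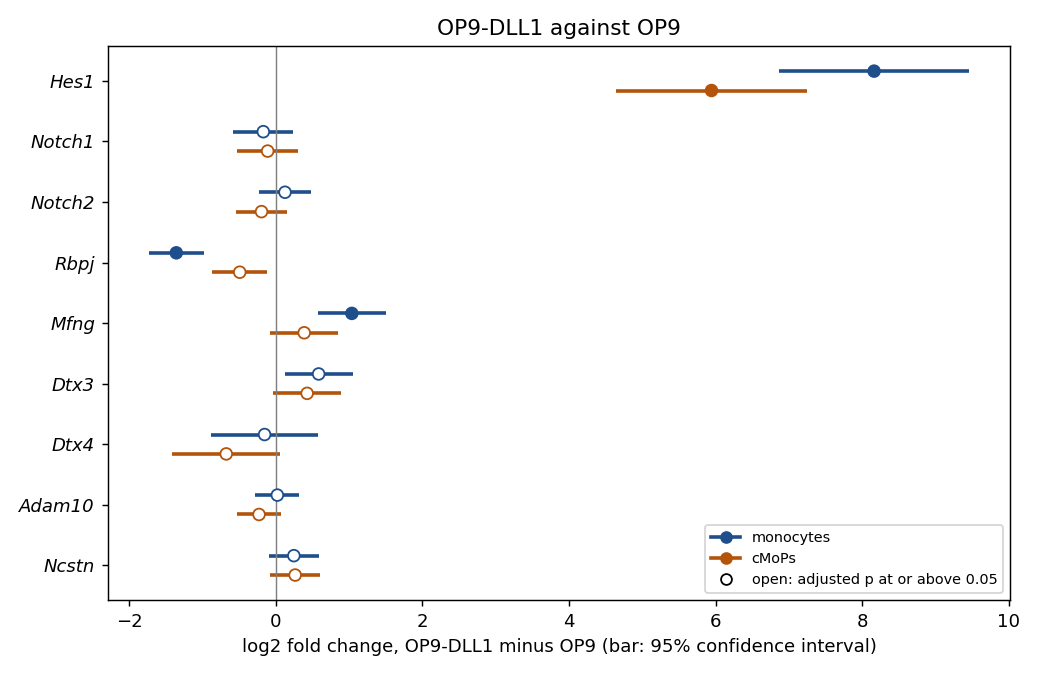
Log2 fold change of each gene on OP9-DLL1 against OP9 (x axis) in monocytes and in cMoPs, with 95% confidence intervals from the limma fit; filled points have an adjusted p under 0.05. Hes1 lies at 8.16 and 5.94, Rbpj lies below 0 and Mfng above 0 with only the monocyte points filled, and the intervals of Notch1, Notch2, Adam10, Ncstn and Dtx4 span 0.

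Whether the cell types responded differently was tested as the difference of the responses, cMoPs minus monocytes. None of the 9 genes passed with limma-trend or with voom. At an unadjusted limma-trend p under 0.05 there were 2, Hes1 and Rbpj, chosen here after their values were seen. At that unadjusted threshold 693 of the 13374 genes tested had a higher and 616 a lower response in cMoPs. Of all genes tested, 0.0523% passed (0.0299% with a higher and 0.0224% with a lower response in cMoPs). For Hes1 the difference was -2.22 ± 0.82 on the log2 scale (95% confidence interval -4.06 to -0.38; adjusted p = 0.43). On the log2(CPM + 1) scale it was -1.65 with an adjusted p of 0.0473, and 24 genes passed in all on that scale. For Rbpj the difference was 0.87 ± 0.24 (0.33 to 1.40; adjusted p = 0.29), and for Mfng it was -0.65 ± 0.29 (adjusted p = 0.51). The remaining 6 genes had differences from -0.52 to 0.06 with adjusted p-values of 0.68 or more.

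Between the cell types, 7 of the 9 genes passed on OP9 and 8 on OP9-DLL1. These comparisons changed a large part of the transcriptome: 56.5% of all genes passed on OP9 (28.8% higher in cMoPs, 27.7% lower) and 57.4% on OP9-DLL1 (28.2% higher, 29.2% lower). The members' shares were 77.8% and 88.9% of 9 genes, which with backgrounds this high is a description. Notch1, Notch2, Rbpj, Dtx3 and Adam10 were lower in cMoPs on both stromas, and Mfng and Dtx4 were higher on both. The median log2 fold change over the 9 genes was -0.67 on OP9 and -0.85 on OP9-DLL1, against 0.01 and -0.01 over all genes. Progenitor, neutrophil, macrophage, dendritic cell and stromal marker sums differed between the cell types in the ranges given above, and their part in these differences was not tested.

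Of the 2 receptors Notch1 had the larger difference. It was lower in cMoPs by a log2 fold change of -1.84 ± 0.18 (SE; 3.59-fold; limma adjusted p = 3.8e-05) on OP9 and -1.78 ± 0.18 (adjusted p = 4e-05) on OP9-DLL1. Notch2 was lower by -0.87 ± 0.16 (1.83-fold; adjusted p = 0.0013) and -1.19 ± 0.16 (adjusted p = 0.00019). The highest cMoP library of either receptor stayed below the lowest monocyte library. As a result the 2 receptors stood in different proportion: within a library, Notch2 over Notch1 per kilobase of exon was 1.80 to 2.65 in the 4 monocyte libraries and 3.62 to 4.22 in the 4 cMoP libraries. Adam10 was lower in cMoPs by -0.67 ± 0.13 (adjusted p = 0.0024) on OP9 and -0.92 ± 0.13 (adjusted p = 0.00035) on OP9-DLL1.

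Rbpj was 2.86-fold lower in cMoPs on OP9 (log2 fold change -1.52 ± 0.17 SE; limma adjusted p = 7e-05) and 1.57-fold lower on OP9-DLL1 (-0.65 ± 0.17; adjusted p = 0.0084). The second of these was lost without monocyte OP9-DLL1 replicate 1 (adjusted p = 0.0749) or cMoP OP9-DLL1 replicate 2 (0.0572). Mfng was 3.13-fold higher in cMoPs on OP9 (adjusted p = 0.00015) and 1.99-fold higher on OP9-DLL1 (adjusted p = 0.0027). For Rbpj and Mfng alike the cell types lay closer together on OP9-DLL1 than on OP9, and this is the difference of responses that did not pass above.

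Hes1 could not be told apart between the cell types on OP9, at 3 and 5 reads in all (limma adjusted p = 0.69). On OP9-DLL1 it was lower in cMoPs by -1.93 ± 0.58 (SE; 3.80-fold; adjusted p = 0.018; 3.5e-05 with voom). The call was lost without any 1 of the 4 OP9-DLL1 libraries, with adjusted p-values of 0.129 and 0.118 without monocyte replicates 1 and 2 and 0.0995 and 0.0884 without cMoP replicates 1 and 2. The authors' deposited table gives 6.92e-06 for that comparison. Notch1, Notch2, Rbpj and Adam10 were lower in cMoPs in the same libraries, and with 4 groups no relation of Hes1 to them was tested.

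Dtx3 was lower in cMoPs by -0.69 ± 0.21 (SE; limma adjusted p = 0.018) on OP9 and -0.85 ± 0.21 (adjusted p = 0.0064) on OP9-DLL1. On OP9 the call was lost without monocyte OP9 replicate 1 (adjusted p = 0.0892) or cMoP OP9 replicate 1 (0.132), and with only the 4 OP9 libraries (0.0558). Dtx4 was higher in cMoPs by 1.38 ± 0.33 (adjusted p = 0.0060) on OP9 and 0.85 ± 0.33 (adjusted p = 0.048) on OP9-DLL1. On OP9-DLL1 it lost the call without monocyte OP9-DLL1 replicate 2 (0.364), cMoP OP9 replicate 1 (0.0739) or 2 (0.0741), or cMoP OP9-DLL1 replicate 1 (0.23) or 2 (0.0649), without the trend (0.0898) and with only the 4 OP9-DLL1 libraries (0.0684). Within a library, Dtx3 over Dtx4 per kilobase of exon was 3.70 to 11.3 in monocytes and 0.916 to 2.68 in cMoPs. Ncstn did not pass on either stroma, at -0.15 ± 0.15 (adjusted p = 0.43) and -0.13 ± 0.15 (adjusted p = 0.48), and passed on OP9 when monocyte OP9 replicate 2 was left out (-0.34; adjusted p = 0.0475).

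**Figure D3:**
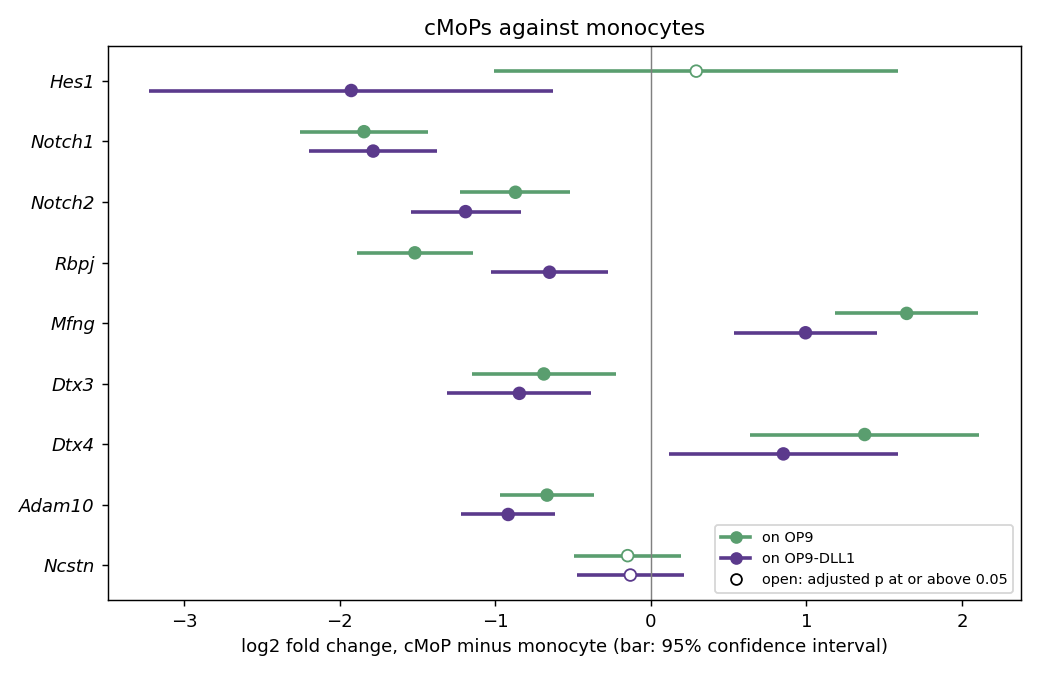
Log2 fold change of each gene in cMoPs against monocytes (x axis) on OP9 and on OP9-DLL1, with 95% confidence intervals from the limma fit; filled points have an adjusted p under 0.05. Notch1, Notch2, Rbpj, Dtx3 and Adam10 lie left of 0 and Mfng and Dtx4 right of it on both stromas, Ncstn spans 0, and Hes1 is filled on OP9-DLL1 alone.

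Levels were compared between genes as CPM per kilobase of annotated exon (mean ± SD, n = 2). In monocytes on OP9 the order was Ncstn at 22.2 ± 4.2, Adam10 at 18.4 ± 2.8, Notch2 at 6.06 ± 0.68, Rbpj at 5.45 ± 0.31, Dtx3 at 5.01 ± 1.02, Mfng at 4.67 ± 1.44, Notch1 at 3.04 ± 0.09, Dtx4 at 1.13 ± 0.05 and Hes1 at 0.0148 ± 0.0049. Neighbours from Ncstn to Adam10 and from Notch2 to Mfng did not differ beyond the spread of the pair, whereas Notch1, Dtx4 and Hes1 each lay below the gene before it. On OP9-DLL1 Hes1 in monocytes reached 5.64 ± 0.15, which is above Notch1 (2.72 ± 0.51) and Rbpj (2.13 ± 0.31) and below Notch2 (6.60 ± 0.51). In cMoPs on OP9-DLL1, Hes1 was at 1.48 ± 0.07, near Rbpj at 1.35 ± 0.09 and above Notch1 at 0.787 ± 0.121. In cMoPs Mfng stood second to Ncstn, at 14.3 ± 1.6 on OP9 and 18.7 ± 0.8 on OP9-DLL1, ahead of Adam10 at 11.5 ± 0.4 and 9.84 ± 0.02.

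The places of Rbpj and of other genes in that order depend on the length used. The annotated exons of Rbpj sum to 12.75 kb, and its longest coding transcript is 5.485 kb. Per kilobase of the longest coding transcript, a measure added after the data were seen, Rbpj in monocytes on OP9 was 12.7 against 6.22 for Notch2, and in monocytes on OP9-DLL1 it was 4.96 against 6.78. Mfng at 7.12 and Dtx3 at 6.46 also stood above Notch2 in monocytes on OP9 on that measure. Hes1 in monocytes on OP9-DLL1 was 7.83, above Notch2. In cMoPs on OP9-DLL1 Hes1 was 2.06 against 3.15 for Rbpj, the reverse of their order per kilobase of annotated exon. Comparisons of 1 gene between groups do not change with the length, whereas the size of a ratio between genes, such as Notch2 over Notch1, does.

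**Figure D4:**
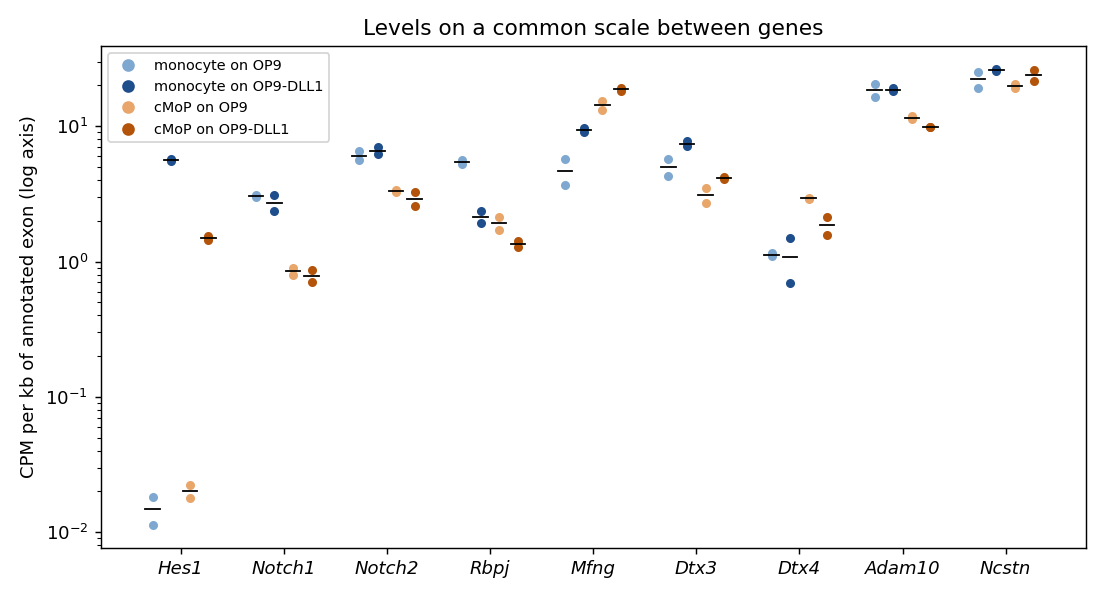
CPM per kilobase of annotated exon (log axis) for the 9 genes, with points for libraries and bars for means in the 4 groups. Ncstn and Adam10 are highest or next to highest in monocytes, Mfng passes Adam10 in cMoPs, and Hes1 moves from the bottom on OP9 to the level of the receptors on OP9-DLL1.

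The rest of the pathway was read from lists of 87 further names, of which 62 were tested; the other receptors and most ligands are not analysed here. In monocytes 6 rose and 3 fell on OP9-DLL1, or 14.5% against 6.39% of all genes, with a median log2 fold change of 0.05 against 0.01. With voom on the recovered reads 7 rose and 1 fell: Nedd4 (adjusted p = 0.294) and Ccnd1 (0.0669) lost the call and the ligase gene Neurl3 gained it as a rise (0.0476). In receptor cleavage 2 of 7 rose, both encoding gamma-secretase subunits. Aph1b rose from 6.05 ± 0.51 to 14.4 ± 0.7 CPM (SD, n = 2; log2 fold change 1.25 ± 0.26 SE; limma adjusted p = 0.023), and Aph1c from 24.6 ± 6.8 to 43.1 ± 3.4 CPM (0.83 ± 0.20; adjusted p = 0.046). These are near-identical copies that may share reads, so their separate values are uncertain. In receptor glycosylation 1 of 10 rose, the xylosyltransferase Xxylt1, from 8.51 ± 0.31 to 15.3 ± 2.0 CPM (adjusted p = 0.049). In trafficking and ubiquitin ligases 1 of 12 fell, Nedd4, from 2.17 ± 0.09 to 1.23 ± 0.09 CPM (limma-trend adjusted p = 0.043, not called with voom).

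Around RBPJ itself, 0 of 10 coactivators passed in monocytes with limma-trend, with voom, or at an unadjusted limma-trend p under 0.05. At that unadjusted threshold 1504 of the 13374 genes tested were higher and 1411 lower. Of 15 corepressors 1 rose, Cir1, which bridges RBPJ to a histone deacetylase complex, from 16.3 ± 2.0 to 26.5 ± 0.1 CPM (limma adjusted p = 0.040). Of 7 targets known from other cells 2 rose and 2 fell. The cyclin gene Ccnd3 rose from 123.4 ± 0.6 to 239 ± 57 CPM (adjusted p = 0.025), and Nfkb2, a subunit of NF-kB, from 16.6 ± 0.6 to 33.4 ± 5.4 CPM (adjusted p = 0.027). Myc fell from 18.0 ± 4.0 to 5.68 ± 0.89 CPM (log2 fold change -1.65 ± 0.18 SE; adjusted p = 0.0014), and the cyclin gene Ccnd1 from 4.85 ± 2.45 to 1.26 ± 0.25 CPM (adjusted p = 0.017, not called with voom). Of these 9 genes Myc passed without any 1 library. Aph1b, Ccnd1 and Nfkb2 were lost without either OP9-DLL1 monocyte library, with adjusted p-values of up to 0.133, 0.102 and 0.212. Ccnd3 was lost without monocyte OP9-DLL1 replicate 2 or either cMoP OP9 library (up to 0.19). Nedd4 was lost without any 1 of 6 libraries (all but the monocyte OP9 pair; up to 0.167), Cir1 without any but monocyte OP9 replicate 2 (up to 0.203), Aph1c without any but monocyte OP9 replicate 1 (up to 0.215) and Xxylt1 without any 1 of the 8 (up to 0.292).

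In cMoPs none of the 62 rose with limma-trend or voom. At an unadjusted limma-trend p under 0.05 there were 4 rises, where 701 of all 13374 genes rose. With limma-trend 1 of the 62 fell, or 1.61% against 0.77% of all genes, with a median log2 fold change of -0.09. The gene was Snai1, a zinc-finger repressor, with 17 reads over the OP9 pair and 0 over the OP9-DLL1 pair. It was under 1 CPM in every cMoP library and entered the test through its monocyte libraries. Against a floor of 3 counts over the group it was at least 5.44-fold lower (limma adjusted p = 0.048), a call lost without any 1 library outside the monocyte OP9 pair (up to 0.243). Aph1b, Aph1c, Myc and Ccnd1 did not pass there with limma-trend: Aph1b measured 2.28 ± 0.42 CPM (OP9) and 4.97 ± 1.32 CPM (OP9-DLL1), and Ccnd1 measured 49.6 ± 4.7 and 17.0 ± 4.8 CPM. With voom Snai1 was not called (adjusted p = 0.39), and Ccnd1 was the gene that fell (0.0172). The difference of responses passed in 0 of 62 with either tool. At an unadjusted limma-trend p under 0.05 there were 6, where 693 of all 13374 genes were higher and 616 lower.

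**Figure D5:**
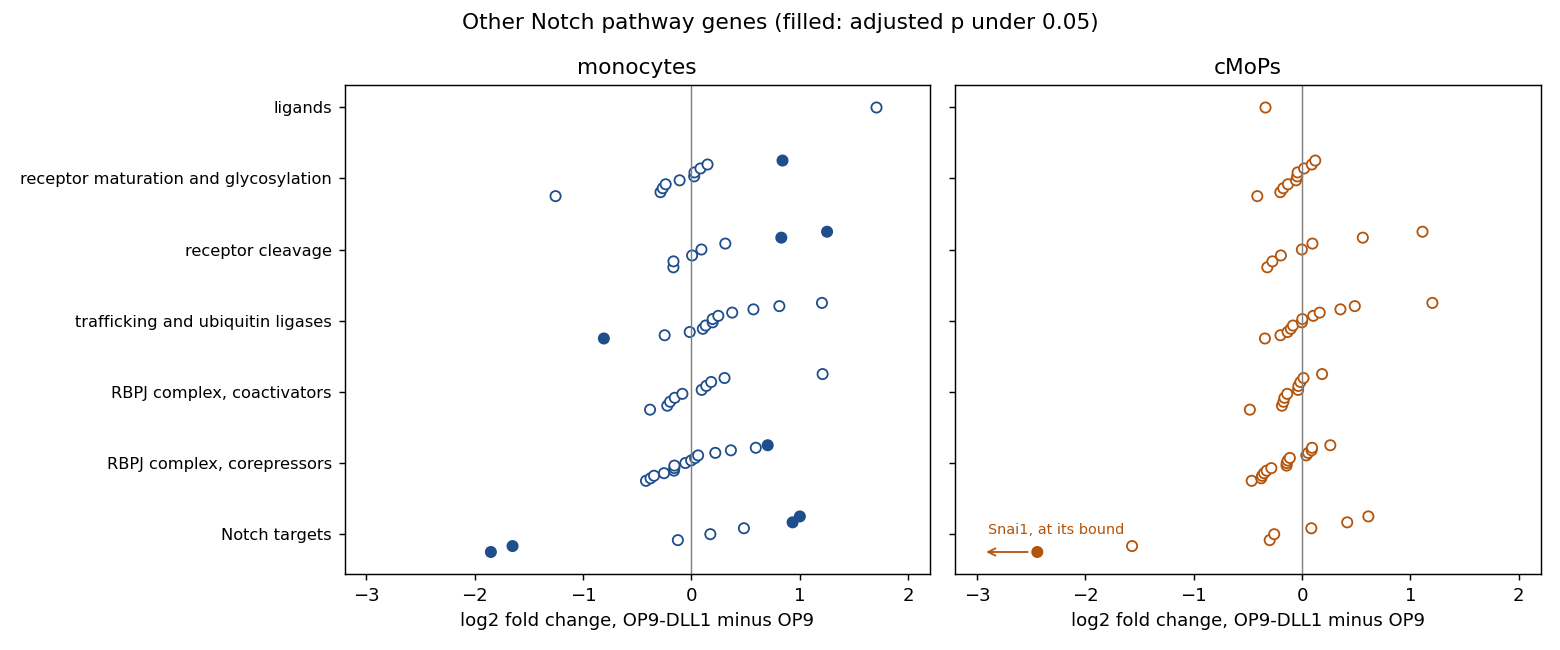
Log2 fold change on OP9-DLL1 against OP9 (x axis) of the 62 other pathway genes by role, in monocytes (left) and cMoPs (right), each point a gene and filled where the adjusted p was under 0.05. Filled points are 9 in monocytes and 1 in cMoPs, Snai1, which is drawn at the bound its 0 reads allow with an arrow toward lower values.

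Between the cell types, 24 of the 62 other pathway genes were lower and 13 higher in cMoPs on OP9, where 27.7% of all genes were lower and 28.8% higher. On OP9-DLL1 31 were lower and 9 higher, where 29.2% of all genes were lower and 28.2% higher. In either direction 59.7% and 64.5% passed, near the shares of all genes (56.5% and 57.4%). The median log2 fold change was -0.36 and -0.48, against 0.01 and -0.01 over all genes. In receptor cleavage 5 of 7 on OP9 and 6 of 7 on OP9-DLL1 were lower and none higher by limma-trend or voom (also none at an unadjusted limma-trend p under 0.05). At that unadjusted threshold 4225 of all 13374 genes were higher in cMoPs on OP9 and 4120 on OP9-DLL1. Aph1c fell from 24.6 ± 6.8 CPM in monocytes on OP9 to 5.12 ± 0.24 CPM in cMoPs (SD, n = 2; limma adjusted p = 2.3e-05). Furin, the protease that matures the receptor, was at 85.2 ± 7.6 CPM in monocytes and 22.6 ± 1.7 CPM in cMoPs on OP9 (adjusted p = 9.1e-06). Poglut2, which adds glucose to the receptor, went the other way, from 5.85 ± 0.28 to 30.0 ± 0.3 CPM (adjusted p = 7.9e-06).

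Of the ubiquitin ligases, Nedd4 was higher in cMoPs on OP9, at 46.0 ± 7.8 against 2.17 ± 0.09 CPM (SD, n = 2; limma adjusted p = 6e-07), and Neurl3 was lower, at 2.10 ± 0.32 against 34.3 ± 11.3 CPM (adjusted p = 4.3e-06). Of the targets, the growth gene Myc was at 197.5 ± 5.3 CPM in cMoPs on OP9 against 18.0 ± 4.0 CPM in monocytes (adjusted p = 1.1e-06), and Ccnd1 at 49.6 ± 4.7 against 4.85 ± 2.45 CPM (adjusted p = 4.4e-05). Cdkn1a, an inhibitor of the cell cycle, was lower in cMoPs, at 218 ± 13 against 560.3 ± 28.0 CPM (adjusted p = 1.4e-05). Furin, Poglut2, Nedd4, Neurl3, Myc, Ccnd1 and Cdkn1a kept their direction on OP9-DLL1, with adjusted p-values of 2.3e-05 or lower, as did Aph1c. Snai1 on OP9-DLL1 held 543 reads over the monocyte pair and 0 over the cMoP pair, at least 209.8-fold lower in cMoPs (adjusted p = 8.1e-06).

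The genes whose log2 CPM ran most like each member over the 8 libraries were taken from 9004 genes, as a description without a test, since the libraries share 4 groups. For Hes1 they were Sla (Pearson r = 0.992, Spearman rho = 0.929), Atf6b (0.988, 0.929) and Morrbid (0.977, 0.810). Sla, which encodes a Src-like adaptor, measured 66.6 ± 1.4 CPM in monocytes on OP9 and 194 ± 11 CPM on OP9-DLL1, and in cMoPs 64.7 ± 4.5 and 135 ± 8 CPM (SD, n = 2). Like Hes1 it was highest in monocytes on OP9-DLL1 and next in cMoPs on OP9-DLL1, but its level on OP9 was far from 0. For Rbpj they were Fcgr1 (0.988, 0.976), Padi4 (0.982, 0.929) and Tmem167 (0.982, 0.881). Fcgr1, the high-affinity receptor for immunoglobulin G, measured 240.2 ± 22.1 (OP9) and 79.4 ± 20.3 CPM (OP9-DLL1) in monocytes and 71.4 ± 21.6 and 40.8 ± 9.6 CPM in cMoPs, the same order of groups as Rbpj.

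For Mfng the nearest genes were Pak1 (r = 0.990, rho = 0.952), Khk (0.987, 0.976) and Spns3 (0.985, 0.976). Spns3 measured 1.09 ± 0.78 CPM in monocytes on OP9, 5.40 ± 2.73 on OP9-DLL1, 29.3 ± 2.9 in cMoPs on OP9 and 46.0 ± 1.1 on OP9-DLL1 (SD, n = 2). For Notch1 they were Ints12 (0.996, 0.952), Dubr (0.996, 0.952) and Tnrc18 (0.996, 0.976), and for Notch2 they were Ptpn12 (0.996, 1), Nipbl (0.996, 0.952) and Lnpep (0.995, 0.929), genes that differ between the cell types much more than between the stromas. Among the members, Notch1 and Notch2 ran together (r = 0.971, rho = 0.762 over 8 libraries), as did Notch2 and Adam10 (0.970, 0.857). Rbpj and Mfng ran opposite (-0.945, -0.929), and Dtx3 and Dtx4 did so too (-0.842, -0.929). Hes1 had r of 0.03 with Notch1 (rho = -0.19) and 0.10 with Notch2 (rho = 0.262).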

How the data were processed

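RNA-seq libraries (SMARTer Ultra Low kit, read pairs of 150 bases, per the labels' protocols) gave 1 deposited table with 13430 entries. Of these, 42 repeat an identifier and were dropped. Its sample columns hold log2 CPM normalized by the authors. It also holds the authors' deposited log2 fold changes and p-values, which were turned so that positive means higher on OP9-DLL1. The submitters' processing notes name the build mm10 and, without roles, limma, edgeR, Salmon 1.5.2, featureCounts 2.0.3, Subread, STAR 2.7.9a and bcl2fastq. For annotation and model: not given in the sources used here.

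Deposited values had voom's form with 0.5 reads added, so whole reads could be recovered (100% of values, tolerance 0.001 reads). The test was limma-trend (limma 3.58.1, R 4.3.3) on those log2 values as deposited, fitting the 4 group means over 8 libraries (4 residual degrees of freedom). A gene entered with 2 or more libraries reaching 1 CPM: 13374 genes, including all 9 members, with 14 left out. Tests were two-sided, and a Benjamini-Hochberg adjusted p under 0.05 passes. The script was tested on simulated data. Positions and exon lengths are from GENCODE M21 (13375 of 13388 identifiers found), promoters from RefSeq on GRCm38.p6. Proteins were not used here.

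The members and lists were chosen with earlier results of these data known. Named genes are the 9 members, pathway genes that passed in a coculture contrast or their difference, up to 8 per cell-type contrast by adjusted p, and the 3 genes most like each of Hes1, Notch1, Notch2, Rbpj and Mfng by Pearson r (at least 5 CPM in the highest group, predicted models left out). Marker genes named singly were chosen after their values were seen. Alternatives were voom on recovered reads, no filter, log2(CPM + 1), no trend, only the 4 libraries of a contrast, median centring, the replicate block and each library left out.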

Additional observations from a re-analysis of the deposited data

How the results depend on the processing

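Over 666 recomputed fold changes of the 9 genes, 644 kept their side of the threshold, called or not. Among these 644, 17 values without a call changed sign. Of the rest, 20 lost and 2 gained a call, and no call of the 19 reversed. Counts over all genes moved more. In monocytes (855 genes) they were 248 without the trend, 306 with only the 4 libraries of the contrast, and from 164 without monocyte OP9-DLL1 replicate 2 to 2488 without monocyte OP9 replicate 2, with 279 without monocyte OP9-DLL1 replicate 1 and 501 to 547 without any 1 cMoP library. In cMoPs (103 genes) they were 64 with voom, 37 without the trend, 315 with only the 4 libraries, and from 31 without cMoP OP9 replicate 2 to 308 without monocyte OP9 replicate 1. For the difference of responses (7 genes) they were 24 with log2(CPM + 1), 1 without the trend, and from 0 (without any 1 of the 6 libraries other than the monocyte OP9 pair) to 1124 without monocyte OP9 replicate 2. The members passing there went from 0 to 1 with log2(CPM + 1), and those passing between cell types on OP9-DLL1 ranged from 5 (without cMoP OP9-DLL1 replicate 2) to 8. The cause of these changes was not tested. Leaving out a library also leaves fewer samples. Whether same-numbered libraries were paired is not given in the labels. Their deviations correlated by 0.0227 to 0.0891, which cannot show whether they were. With the replicate block the counts were 156 in cMoPs and 11 for the difference, with the same calls for the 9 genes. Where a library was left out, the lone library of its group is assumed to vary like the others. The difference of responses could not be fitted with 4 libraries. At 1 to 3 Hes1 reads per OP9 library, depth limits the size of its fold change.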
